A study of Mus musculus with 9 samples.

Results

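The genes described here encode the nuclear subunits of the mitochondrial respiratory chain and of ATP synthase. They were taken by name: gene probes named Nduf, Uqcr, Cox4, Cox5, Cox6, Cox7, Cox8 or Atp5 followed by anything, or Sdha, Sdhb, Sdhc, Sdhd, Cycs or Cyc1. The rule found 129 of the 41174 gene probes on the array, for 88 genes. Sorted by name, 37 of these genes were placed in complex I, 4 in complex II, 8 in complex III, 18 in complex IV and 15 in complex V (ATP synthase), and 1 is cytochrome c. The complex I genes thus include Ndufa4, which was later found with complex IV. The other 5 share only the name prefix: Ndufaf1 and Ndufaf2 are assembly factors of complex I, Atp5s and Atp5sl are now called Dmac2l and Dmac2, and Cox4nb is now called Emc8, a subunit of an endoplasmic reticulum complex. Between them 85 genes were tested, out of 16735 genes tested on the whole array, and 84 of the 85 were above background on all 9 arrays. Cox4i2, Cox7b2 and Cox8c were not tested, since no group had their probe well above background on all 3 of its arrays.

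RNA was measured in 3T3-L1 cells, a mouse line of fibroblast-like preadipocytes that can be turned into fat cells but were not differentiated here. The study used 3 groups of 3 arrays. In the first, cells received compound X-1 at 70 µM, in the second compound X-3 at 70 µM, and the third was an untreated control; the series calls both compounds derivatives of mangiferin, a plant xanthone glycoside, and gives them by code name only. Cells of every group had been grown in medium with 10% fetal bovine serum and then kept without serum for 48 h, and RNA was taken 24 h after the compounds were added. The labels describe the control as untreated, name no solvent control and call the experiments independent without saying what was separate, so p-values measure the spread between these 9 samples.

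As background, complexes I and II pass electrons from NADH and succinate to coenzyme Q, complex III passes them on to cytochrome c, and complex IV passes them to oxygen. Complexes I, III and IV pump protons across the inner membrane, and ATP synthase uses that gradient to make ATP. Most subunits are encoded in the nucleus, a few in mitochondrial DNA, and some subunits of complex IV and ATP synthase come in several isoforms encoded by separate genes that differ between tissues.

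Signals are given as log2 of each array's processed signal relative to its own 75th percentile, so levels and differences are both on the log2 scale; the scaling sets the level of the whole array, and values of one probe are not compared with those of another. Between 57.9% and 67.1% of gene probes were well above background on each array, and none was saturated. Replicate numbers were taken to mark slides, so slides 1, 2 and 3 below stand for replicates 1, 2 and 3. The replicate 1 arrays of all groups were read with another version of the scanner software. They had 2 of 10 spike-in probes above background, against 8 or 9 on the other arrays. Scaled to the spike-in RNA of replicates 2 and 3, the median of all genes was -0.84 with X-1 and -0.65 with X-3. With the 75th percentile it was 0.06 and 0.05. By spike-in scaling 77 and 74 members were lower and none higher. Over all 16735 genes, 9973 and 8306 were lower and 1534 and 1854 higher in that setting. Differences below are relative to the 75th percentile. Control, X-1 and X-3 samples took the same place on each slide, so place and group cannot be told apart. For the members, the X-3 array of replicate 1 stood above the other X-3 arrays. All 10 preadipocyte or fibroblast markers were above background on every array. The 4 mature fat cell markers measured throughout summed to 100 to 103 times the percentile on the X-1 arrays, 97.8 to 128 on the X-3 arrays and 48.7 to 66.8 on the control arrays, and the 3 macrophage markers to 1.05 to 1.12 on the X-1 arrays, 1.10 to 1.29 on the X-3 arrays and 1.70 to 1.89 on the control arrays; their part in the results was not tested. These sums follow the brightest marker of each list, and the others did not all go the same way. Among the fat cell markers, Lpl rose by 0.86 with X-1 and 1.0 with X-3 (-0.22 and 0.0447 under spike-in scaling), while Fabp4 fell by 2.84 and 2.49, Pparg differed by -0.50 and -0.38 and Cebpa by 0.40 and 1.04. Among the macrophage markers, Lyz2 fell by 1.57 with X-1 and 1.53 with X-3, while Csf1r rose by 1.11 and 1.25 and Cd68 differed by 0.73 and 1.11; with spike-in scaling Csf1r was not called, and the Cd68 difference with X-1 was -0.0056. By contrast the mature fat cell genes Lep and Cfd, the brown fat genes Ucp1 and Prdm16, the endothelial genes Pecam1, Cdh5 and Kdr and the macrophage gene Adgre1 were above background on none. The remaining fat cell markers of the list, Adipoq, Plin1, Cidec and Retn, were above background on some arrays but were not tested. In bulk RNA such as this, fewer cells of a kind and less RNA per cell cannot be told apart.

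Many respiratory chain genes had lower signal after 24 h with either compound, and the shares called lower differed between the 5 complexes, a difference that was not tested. With X-1, 42 of the 85 members were lower than control at an adjusted p under 0.05 (limma, Benjamini-Hochberg over all 16735 genes) and 3 were higher. Over all genes tested, 28.2% were lower and 28% were higher in the same comparison, against 49.4% and 3.53% of members. With X-3, 39 members were lower and 4 were higher, or 45.9% and 4.71% of members, where 26.4% of all genes tested were lower and 28.9% higher. The median log2 difference of the members was -0.41 with X-1 and -0.43 with X-3, beside 0.06 and 0.05 for all genes. Taken slide by slide, the members' median with X-1 was -0.59, -0.20 and -0.44 on slides 1, 2 and 3, and with X-3 it was -0.18, -0.48 and -0.52. Both comparisons use the same 3 control arrays. Leaving out the X-3 array of replicate 1 raised the count of lower members with X-3 to 59, and leaving out that of replicate 3 brought it down to 25. Over all genes the lower count with X-3 ran from 3765 to 5158 when each array was left out in turn. Groups of arrays did not overlap and the treated group lay lower for 59 members with X-1 and 42 with X-3, where 33.8% and 29.2% of all genes did so. The treated group lay higher without overlap for 4 members with X-1 and 5 with X-3, against 34.7% and 32.7% of all genes.

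**Figure D1:**
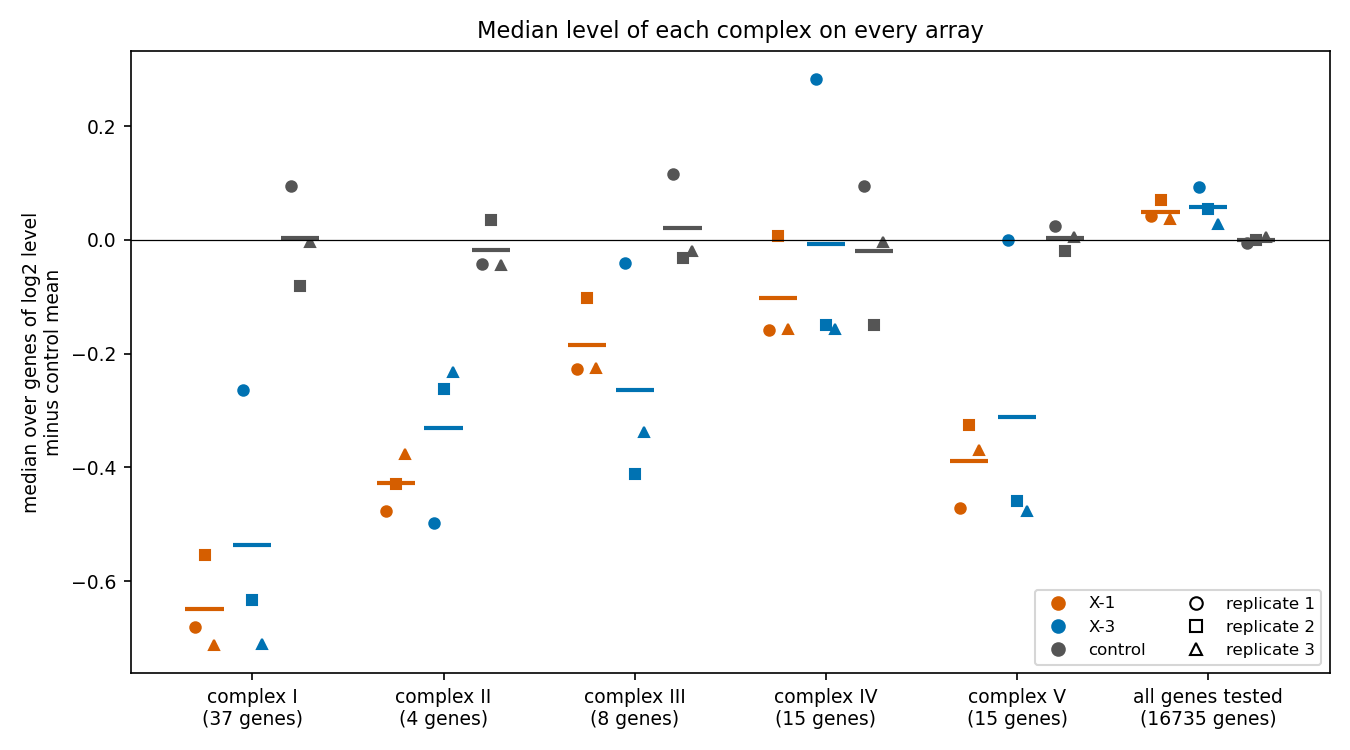
Median over the tested genes of each complex of the log2 level minus the gene's control mean, for every array. Points are arrays with the replicate as the marker shape, and horizontal lines are means of the 3 arrays for X-1, X-3 and control. Complex I lies lowest, at -0.55 to -0.71 on the X-1 arrays and -0.26 to -0.71 on the X-3 arrays, and complex IV lies around the control arrays; the X-3 point of replicate 1 stands above the other X-3 points in complexes I, III, IV and V.

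The order of the complexes by median is shown in the plot of complex medians by array. Complex I had the lowest median of the 5 with both compounds, -0.68 with X-1 and -0.55 with X-3. Complex V came to -0.45 and -0.30, complex II to -0.43 and -0.21, complex III to -0.18 and -0.26, and complex IV to -0.06 and 0.02. These are descriptions of gene lists of 4 to 37 genes, and the order of complexes II and III was not the same with the 2 compounds. On the arrays of replicates 2 and 3 the complex I medians of X-3, -0.63 and -0.71, lay close to those of the X-1 arrays, and the replicate 1 array of X-3 was at -0.26.

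In complex I, the entry point for NADH electrons, 25 of 37 genes were lower with X-1 and 24 were lower with X-3, and none was called higher. The shares called lower, 67.6% and 64.9%, stood beside 28.2% and 26.4% of all genes tested. The strongest change was that of Ndufb5, an accessory subunit of the membrane arm. It measured -1.41, -1.19 and -1.28 on the X-1 arrays, -0.99, -1.05 and -1.0 on the X-3 arrays and 0.68, 0.75 and 0.44 on the control arrays. The treated and control arrays are far apart, and the compounds lie close together, X-1 lower. Ndufb5 fell by 1.92 on the log2 scale with X-1 (SE 0.12, adjusted p = 2.54e-06) and by 1.64 with X-3 (SE 0.12, adjusted p = 7.89e-06).

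Of 6 nuclear core subunits of complex I, from the set of those that carry the flavin and iron-sulphur centres or bind quinone and are conserved from bacteria, 5 were lower with each compound. Over all genes tested, 28.2% were lower with X-1 and 26.4% with X-3. Ndufs8, an iron-sulphur protein of the arm that leads to quinone, measured 0.65, 0.72 and 0.53 on the X-1 arrays, 1.35, 0.85 and 1.03 on the X-3 arrays and 2.15, 2.05 and 1.97 on the control arrays. No treated array reached the lowest control array. Its difference from control was -1.43 ± 0.15 with X-1 (adjusted p = 4.17e-05) and -0.98 ± 0.15 with X-3 (adjusted p = 0.000478). Ndufs7, another iron-sulphur core protein, differed by -0.93 with X-1 and -0.73 with X-3, Ndufv1, which holds the flavin that takes electrons from NADH, by -0.86 with X-1 and -0.54 with X-3, and Ndufs3 by -0.68 with X-1 and -0.55 with X-3, all past the threshold. The X-3 call of Ndufs3 was lost without any 1 of X-3 replicates 2 and 3 or control replicates 1 and 2 (adjusted p = 0.0729 to 0.0977), and that of Ndufv1 without X-3 replicate 3 (adjusted p = 0.0547). Ndufv2, an iron-sulphur partner of Ndufv1, differed by -0.39 with X-1 and -0.47 with X-3, and its X-1 call was lost without any 1 of control replicates 2 and 3 (adjusted p = 0.051 to 0.0649). Ndufs1, the largest iron-sulphur protein of the NADH end, did not pass the test: it measured 3.38, 3.48 and 3.57 on the X-1 arrays, 3.64, 3.43 and 3.25 on the X-3 arrays and 3.54, 3.66 and 3.79 on the control arrays, and its differences were -0.19 (95% confidence interval -0.50 to 0.12) and -0.22 (-0.54 to 0.09).

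Accessory subunits, which surround the core in animals, ranged widely. Of the Ndufb and Ndufc genes, whose products sit in the membrane arm, 7 of 12 were lower with X-1 and 10 of 12 with X-3. These shares, 58.3% and 83.3%, stood beside 28.2% and 26.4% of all genes tested. Besides Ndufb5 the lower genes included Ndufb4 (-1.09 with X-1 and -0.85 with X-3) and Ndufb2 (-0.89 with X-1 and -1.01 with X-3). Ndufb3 had 3.17, 3.18 and 3.14 on the X-1 arrays, 3.54, 3.00 and 3.07 on the X-3 arrays and 3.40, 2.91 and 3.07 on the control arrays, overlapping in all groups. Of the 14 genes named Ndufa or Ndufab, 8 were lower with X-1 and 4 with X-3. The X-1 share was 57.1%, and the X-3 share, 28.6%, was near the 26.4% of all genes tested. Among the lower genes were Ndufa2 (-0.98 with X-1 and -0.76 with X-3), Ndufa10 (-0.69 with X-1 and -0.53 with X-3) and Ndufa13, also known as GRIM-19 (-0.76 with X-1 and -1.01 with X-3). Ndufa6, a subunit at the joint of the 2 arms, fell by 0.90 with X-1, and with X-3 it differed by -0.30 (adjusted p = 0.213). The 6 genes of this group called with neither compound lay between -0.52 and 0.08. One of them, Ndufa4, first described in complex I and later found with complex IV, measured 5.81, 5.75 and 5.51 on the X-1 arrays, 6.22, 5.29 and 5.20 on the X-3 arrays and 6.44, 5.88 and 5.84 on the control arrays, and its paralogue Ndufa4l2 was not matched to a probe. The remaining accessory genes, Ndufs4, Ndufs5, Ndufs6 and Ndufv3, were all lower with each compound, the Ndufs5 call with X-1 being lost without any 1 of X-1 replicates 1 and 3 or control replicates 1 and 3 (adjusted p = 0.0729 to 0.0891) and with X-3 without any 1 of X-3 replicates 2 and 3 or control replicates 1 and 3 (adjusted p = 0.0616 to 0.074). Ndufs6, which binds zinc, measured 3.06, 3.07 and 2.89 on the X-1 arrays, 3.44, 3.19 and 3.06 on the X-3 arrays and 3.90, 4.02 and 4.10 on the control arrays, and it differed by -1.0 ± 0.13 with X-1 (adjusted p = 0.0002) and -0.78 ± 0.13 with X-3 (adjusted p = 0.00104). Ndufv3 is taken up below with its probes, which do not go the same way.

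**Figure D2:**
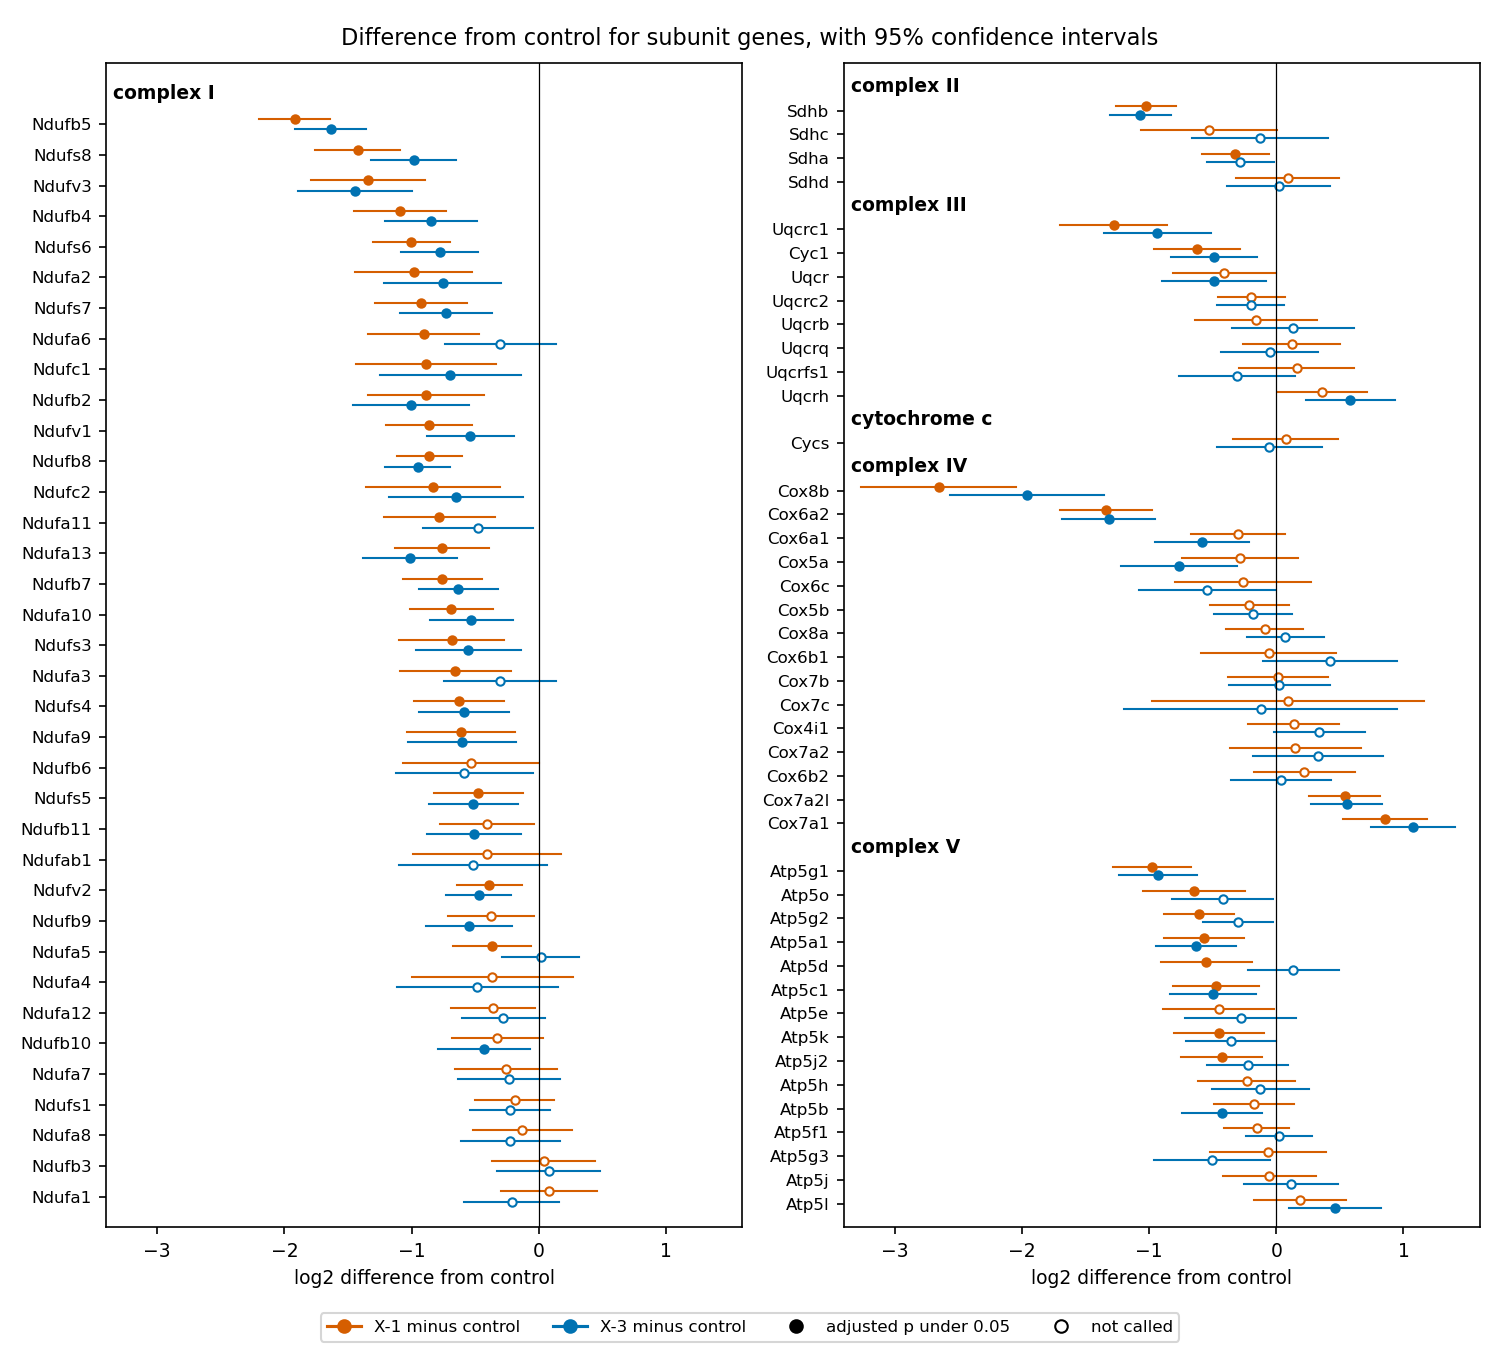
Log2 difference from control for 79 tested subunit and cytochrome c genes, X-1 above X-3 for each gene, with 95% confidence intervals from limma; filled points have an adjusted p under 0.05. In complex I 34 of 36 points lie left of 0 for each compound, complex IV spreads from Cox8b (-1.96 with X-3, and with X-1 a fitted point where only a bound can be given) to Cox7a1 at 0.85 and 1.07, and the intervals are 0.37 wide on either side in the median gene. With spike-in scaling the points of Cox7a2l, Uqcrh and Atp5l moved below 0.

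Complex II has 4 subunits, all nuclear: Sdha and Sdhb form the part that oxidises succinate, and Sdhc and Sdhd anchor it in the membrane. Sdhb, the iron-sulphur subunit, measured 1.19, 1.15 and 1.18 on the X-1 arrays, 1.16, 1.09 and 1.15 on the X-3 arrays and 2.10, 2.23 and 2.28 on the control arrays. The 3 arrays of each group lay close together, and both treated groups were well below control. It fell by 1.03 with X-1 (SE 0.10, adjusted p = 3.84e-05) and by 1.07 with X-3 (SE 0.10, adjusted p = 3.63e-05). Sdha, the flavoprotein, fell by 0.32 with X-1 by its brightest probe (adjusted p = 0.0412, and 0.0553 with the replicate block), and with X-3 its difference was -0.28 (adjusted p = 0.0668). The X-1 call was also lost without any 1 of X-1 replicates 1, 2 and 3, X-3 replicates 2 and 3 or control replicates 2 and 3 (adjusted p = 0.0558 to 0.15). Sdhc measured 0.74, 0.76 and 0.77 on the X-1 arrays, 0.53, 1.40 and 1.55 on the X-3 arrays and 1.31, 1.33 and 1.23 on the control arrays. The 3 X-1 arrays were below all control arrays, while the X-3 arrays fell on either side of them, and neither comparison passed (adjusted p = 0.0825 and 0.659). With median scaling the X-1 difference of Sdhc was -0.74 and was called (adjusted p = 0.0114). Sdhd differed by 0.09 with X-1 and 0.02 with X-3 and was not called. In total 2 of 4 genes, or 50%, were lower with X-1 and 1 of 4, or 25%, with X-3, where 28.2% and 26.4% of all genes tested were. Without the X-3 array of replicate 1 there were 2 with X-3.

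In complex III, 2 of 8 genes were lower with X-1, and 3 were lower and 1 higher with X-3; the shares called lower, 25% and 37.5%, stood beside 28.2% and 26.4% of all genes tested. The X-3 count was 4 without the X-3 array of replicate 1, and 1 without any 1 of X-3 replicates 2 and 3 or control replicates 1 and 2. Uqcrc1, a core protein related to processing peptidases, measured 3.79, 3.95 and 3.82 on the X-1 arrays, 4.57, 4.20 and 3.82 on the X-3 arrays and 5.29, 5.08 and 5.03 on the control arrays. All treated arrays were below all control arrays. Its difference was -1.28 ± 0.19 with X-1 (adjusted p = 0.000345) and -0.94 ± 0.19 with X-3 (adjusted p = 0.00241). Cyc1, cytochrome c1, which hands electrons to cytochrome c, differed by -0.62 ± 0.15 with X-1 (adjusted p = 0.00633) and -0.49 ± 0.15 with X-3 (adjusted p = 0.0201). Its X-3 call was lost without any 1 of X-3 replicates 2 and 3 or control replicates 1 and 2 (adjusted p = 0.0512 to 0.0719). Uqcr, the small subunit now called Uqcr11, differed by -0.41 with X-1 (adjusted p = 0.0789) and -0.49 with X-3 (adjusted p = 0.0428, and 0.0667 with the replicate block), and the interval of X-3 minus X-1 was -0.49 to 0.33. The X-3 call was lost without any 1 of X-3 replicates 2 and 3, X-1 replicates 2 and 3 or control replicates 1, 2 and 3 (adjusted p = 0.0517 to 0.136). Uqcrh, the hinge protein that holds cytochrome c1, measured 5.94, 6.29 and 6.15 on the X-1 arrays, 6.63, 6.20 and 6.21 on the X-3 arrays and 5.68, 5.82 and 5.81 on the control arrays. Every treated array was above every control array. It rose by 0.58 with X-3 (adjusted p = 0.0111) and with X-1 it differed by 0.36 (adjusted p = 0.0751), but the differences were -0.50 with X-1 and -0.30 with X-3 under spike-in scaling, and with median scaling the X-3 call was lost (0.38, adjusted p = 0.216). Uqcrfs1, the Rieske iron-sulphur protein, differed by 0.16 with X-1 and -0.31 with X-3, Uqcrc2, the second core protein, by -0.20 with X-1 and -0.20 with X-3, and neither was called. Cycs, cytochrome c itself, measured 4.43, 4.51 and 4.19 on the X-1 arrays, 4.64, 4.08 and 4.04 on the X-3 arrays and 4.44, 4.16 and 4.32 on the control arrays. Its groups overlapped and its differences were 0.07 (-0.34 to 0.49) and -0.05 (-0.47 to 0.36).

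In complex IV, cytochrome c oxidase, 2 of 15 tested genes were lower with X-1 and 4 with X-3, and 2 were higher with each compound. The shares called lower, 13.3% and 26.7%, were below or near those of all genes tested. The genes with the greatest differences in either direction were tissue isoforms and a related gene. Cox8b, the isoform of heart, muscle and brown fat, measured -6.90, -6.33 and -5.86 on the X-1 arrays, -5.69, -5.77 and -5.54 on the X-3 arrays and -3.30, -4.01 and -3.80 on the control arrays. None of the 3 X-1 arrays was well above background, 2 of the 3 X-3 arrays were, and all 3 control arrays were. The probe thus met the filter through the control arrays alone, where it was highest, so its lower calls are not independent of that filter. Cox8b was at least 3.70-fold lower with X-1 than in control, setting the control mean against the lowest signal well above background on the X-1 arrays. The limma adjusted p of 3.53e-05 belongs to the fitted X-1 difference, not to this bound. With X-3 Cox8b fell by 1.96 (SE 0.27, adjusted p = 0.000267). Cox6a2, the heart and muscle isoform of subunit 6a, measured -1.30, -0.90 and -1.01 on the X-1 arrays, -0.82, -1.03 and -1.30 on the X-3 arrays and 0.34, 0.19 and 0.28 on the control arrays. It differed by -1.34 ± 0.16 with X-1 (adjusted p = 0.000104) and -1.32 ± 0.16 with X-3 (adjusted p = 0.000134), with no overlap. Cox7a1, the heart and muscle isoform of subunit 7a, moved the other way and measured -1.39, -1.09 and -1.29 on the X-1 arrays, -0.84, -1.22 and -1.04 on the X-3 arrays and -2.09, -2.26 and -1.97 on the control arrays. Every treated array was above every control array, and its difference was 0.85 ± 0.15 with X-1 (adjusted p = 0.000935) and 1.07 ± 0.15 with X-3 (adjusted p = 0.00026). With spike-in scaling its differences stayed above 0 but were 0.02 and 0.29 and were not called.

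The muscle genes Ckm and Myh4 were above background on no array. The other muscle markers Acta1 and Myh1 had a summed signal of 0.157 to 0.276 times the 75th percentile on the X-1 arrays, 0.205 to 0.428 on the X-3 arrays and 0.501 to 0.929 on the control arrays, with Acta1 the brighter. Acta1 differed by -2.01 with X-1 and -1.42 with X-3, its X-3 call being lost without any 1 of X-3 replicate 3 or control replicate 1 (adjusted p = 0.054 to 0.0562). Myh1 went the other way, by 0.36 with X-1 (adjusted p = 0.141) and 0.57 with X-3 (adjusted p = 0.034), and its X-3 difference was -0.26 with spike-in scaling, was not called with median scaling (0.36, adjusted p = 0.238) and was not called without any 1 of X-3 replicates 1 and 2 or control replicates 1 and 2 (adjusted p = 0.0632 to 0.111). Of the brown fat markers other than Cox7a1 and Cox8b, Ucp1 and Prdm16 were above background on no array, Dio2 on 1 control array, and Cidea on all, at 0.0640 to 0.0954 times the percentile with X-1, 0.0570 to 0.100 with X-3 and 0.0459 to 0.0601 in control. The part of such cells in the changes of Cox6a2, Cox7a1 and Cox8b was not tested.

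Of the other complex IV genes, Cox5a and Cox6a1 were called lower with X-3 and Cox7a2l higher with both. Cox6a1, the general partner of Cox6a2, differed by -0.30 with X-1 (adjusted p = 0.147) and fell by 0.58 with X-3 (adjusted p = 0.0138), a call lost without any 1 of X-3 replicate 3 or control replicate 3 (adjusted p = 0.0526 to 0.0527). Cox5a, a subunit on the matrix side, differed by -0.28 with X-1 (adjusted p = 0.256) and fell by 0.77 with X-3 (adjusted p = 0.0101). The difference between the compounds was not called for either gene, with X-3 minus X-1 at -0.28 (-0.65 to 0.09) and -0.48 (-0.94 to -0.03). Cox4i1, the general isoform of subunit 4, measured 6.29, 6.75 and 6.70 on the X-1 arrays, 6.93, 6.64 and 6.77 on the X-3 arrays and 6.34, 6.40 and 6.59 on the control arrays. The X-3 arrays were all above the control arrays, the X-1 arrays were not, and neither difference was called (0.14 and 0.34, adjusted p = 0.487 and 0.0982). Cox5b, Cox6b1, its testis isoform Cox6b2, Cox6c, Cox7a2, Cox7b, Cox7c and Cox8a were not called in either comparison, with differences from -0.55 (Cox6c with X-3) to 0.42 (Cox6b1 with X-3), though with the replicate block these last differences of Cox6c and Cox6b1 passed (adjusted p = 0.0293 and 0.0295). Cox7c was measured with the widest interval of them, -0.98 to 1.16 with X-1, and lay higher on all 3 arrays of slide 1 than on those of the other slides. Cox7a2l, a relative of Cox7a2 that links complexes III and IV in supercomplexes, measured 4.78, 5.07 and 4.97 on the X-1 arrays, 4.88, 5.00 and 4.99 on the X-3 arrays and 4.50, 4.42 and 4.29 on the control arrays. It rose by 0.54 with X-1 (adjusted p = 0.00475) and by 0.55 with X-3 (adjusted p = 0.00443), though with spike-in scaling the differences were -0.24 and -0.06 and with median scaling they were 0.34 and 0.35 without a call.

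**Figure D3:**
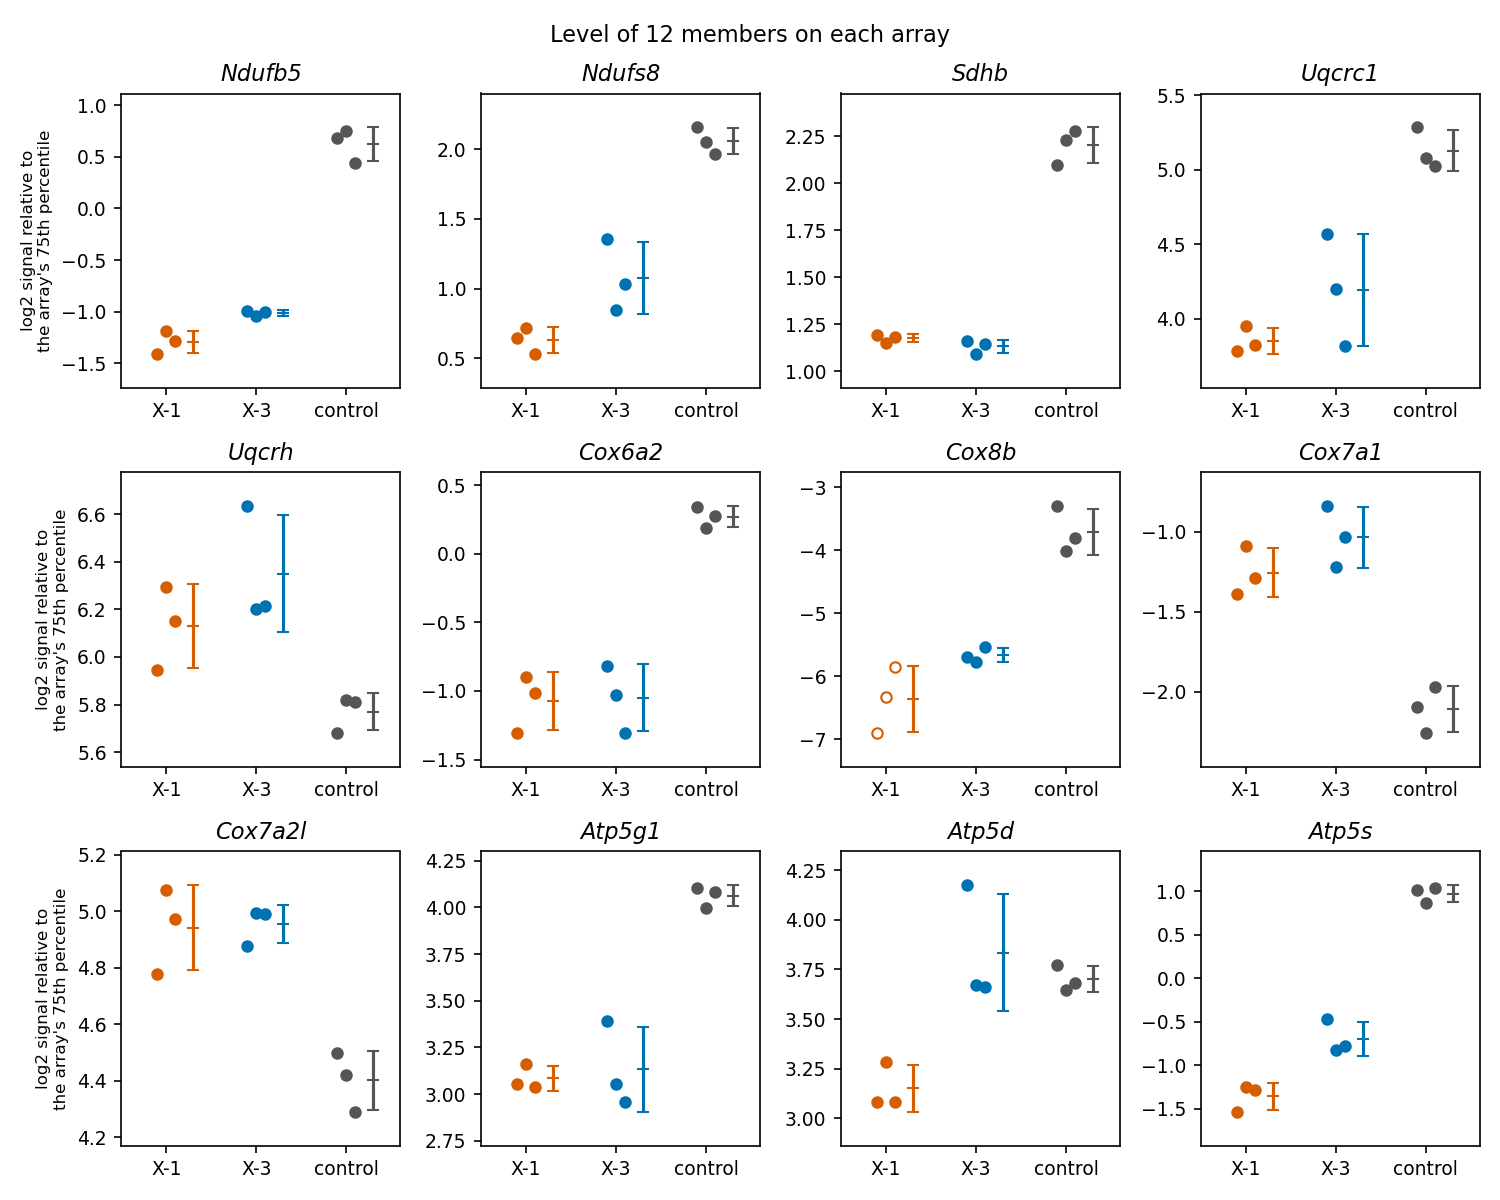
Log2 level relative to the array's 75th percentile of 12 members on each array, in the order X-1, X-3 and control; points are the 3 arrays of a group, and the mean and SD stand beside them. Open points of Cox8b belong to X-1, where no array was well above background. Ndufb5, Ndufs8, Sdhb, Uqcrc1, Cox6a2, Cox8b, Atp5g1 and Atp5s lie lower on all treated arrays and Uqcrh, Cox7a1 and Cox7a2l higher, the first and last of these 3 below 0 with spike-in scaling; Atp5d is low with X-1 alone.

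ATP synthase (complex V) had 8 of 15 genes lower with X-1, and 4 lower and 1 higher with X-3. The shares called lower were 53.3% with X-1 and 26.7% with X-3, where 28.2% and 26.4% of all genes tested were. The X-1 count was 5 without any 1 of X-1 replicates 1 and 3 or control replicate 3, and the X-3 count was 11 without X-3 replicate 1 and 2 without any 1 of X-3 replicates 2 and 3 or control replicate 2. The c ring that turns in the membrane is built from 1 protein encoded by 3 genes, Atp5g1, Atp5g2 and Atp5g3, whose products differ in the leader that is cut off. Atp5g1 measured 3.06, 3.16 and 3.04 on the X-1 arrays, 3.39, 3.05 and 2.96 on the X-3 arrays and 4.10, 4.0 and 4.08 on the control arrays. It was lower on all treated arrays and differed by -0.98 ± 0.14 with X-1 (adjusted p = 0.000256) and -0.93 ± 0.14 with X-3 (adjusted p = 0.0004). Atp5g2 fell by 0.61 with X-1 (adjusted p = 0.0022) and differed by -0.30 with X-3 (adjusted p = 0.0608). Atp5g3 measured 6.48, 7.09 and 6.94 on the X-1 arrays, 6.75, 6.21 and 6.21 on the X-3 arrays and 6.80, 6.97 and 6.92 on the control arrays. Its X-1 and control arrays overlapped and its X-3 arrays were all below control, with differences of -0.06 and -0.51 (adjusted p = 0.807 and 0.059).

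In the catalytic head and stalks, 4 of 6 genes were lower with X-1 and 3 of 6 with X-3. These shares, 66.7% and 50%, stood beside 28.2% and 26.4% of all genes tested. Atp5a1 (alpha) differed by -0.57 with X-1 and -0.63 with X-3 and Atp5c1 (gamma) by -0.47 with X-1 and -0.50 with X-3, called with both compounds. The X-1 call of Atp5c1 was lost without any 1 of X-1 replicate 1 or control replicates 2 and 3 (adjusted p = 0.0576 to 0.0789) and its X-3 call without any 1 of X-3 replicates 2 and 3 or control replicates 2 and 3 (adjusted p = 0.0508 to 0.0706). Atp5b (beta), the catalytic subunit, differed by -0.18 with X-1 (adjusted p = 0.305) and fell by 0.43 with X-3 (adjusted p = 0.027), a call lost without any 1 of X-3 replicates 2 and 3 or control replicates 1 and 2 (adjusted p = 0.0692 to 0.0945). Atp5o, which joins the head to the outer stalk, fell by 0.65 with X-1 and differed by -0.42 with X-3 (adjusted p = 0.0691). Atp5e (epsilon) was not called (-0.45 with X-1 and -0.28 with X-3). Atp5d (delta), part of the rotating central stalk, fell by 0.55 with X-1 (adjusted p = 0.0152, and 0.0509 without X-1 replicate 3), and with X-3 it differed by 0.13 (adjusted p = 0.498). Of the other 6 membrane and stalk subunits, Atp5j2 and Atp5k were lower with X-1 (-0.43 and -0.45), but Atp5j2 not without any 1 of X-1 replicates 1, 2 and 3 or control replicates 1, 2 and 3 (adjusted p = 0.0513 to 0.0852) and Atp5k not without any 1 of X-1 replicates 1, 2 and 3 or control replicates 1 and 3 (adjusted p = 0.0573 to 0.11). Atp5l, subunit g, rose by 0.46 with X-3 (adjusted p = 0.0364), with a difference of -0.20 under spike-in scaling. The call was lost with median scaling (0.26, adjusted p = 0.344) and without any 1 of X-3 replicates 1 and 3, X-1 replicate 2 or control replicates 2 and 3 (adjusted p = 0.0541 to 0.125).

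Of the genes that share only a prefix, 3 of 5, or 60%, were lower with each compound. Over all genes tested, 28.2% were lower with X-1 and 26.4% with X-3. Atp5s, a homologue of a factor once linked to the ATP synthase stalk, measured -1.53, -1.25 and -1.28 on the X-1 arrays, -0.47, -0.83 and -0.78 on the X-3 arrays and 1.01, 0.86 and 1.04 on the control arrays. The 3 groups did not overlap, X-1 lowest. It differed by -2.33 ± 0.14 with X-1 (adjusted p = 1.88e-06) and -1.67 ± 0.14 with X-3 (adjusted p = 1.58e-05), although its dimmer second probe read -0.46 with X-1 and 0.36 with X-3. Ndufaf2, which binds a late intermediate of complex I, differed by -1.12 ± 0.21 with X-1 (adjusted p = 0.00142) and -1.09 ± 0.21 with X-3 (adjusted p = 0.00188). Ndufaf1, which acts in building the membrane arm, fell by 0.40 with X-3 (adjusted p = 0.0352) and differed by -0.10 with X-1, and its X-3 call was lost without any 1 of X-3 replicates 2 and 3 or control replicates 2 and 3 (adjusted p = 0.0867 to 0.128). Cox4nb rose by 0.49 with X-1 (adjusted p = 0.0094), with -0.41 under spike-in scaling and no call with median scaling (0.29, adjusted p = 0.286). A further 9 tested genes would have met the name rule by their present symbols but carry older names in the files. Among them, Ndufaf3, an early assembly factor of complex I, differed by -1.64 with X-1 and -0.86 with X-3 and Ndufaf5, which modifies a complex I subunit, by -0.98 with X-1 and -0.68 with X-3, both called. Ndufaf7 was lower with X-1 (-0.44, and adjusted p = 0.0523 without control replicate 3). Ndufaf4 was higher with X-1 (0.44), with -0.42 under spike-in scaling and -0.47 for the mean of its probes, and its call was lost without any 1 of X-1 replicates 1 and 2 or control replicates 1, 2 and 3 (adjusted p = 0.0593 to 0.119). Ndufaf6, Ndufb1, Uqcr10, Atp5md and Atp5mpl were not called.

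Several genes were read by more than 1 probe, and the probes did not always go together. Among the 28 members with more than 1 kept probe, all probes gave the same call for 15 in each of the comparisons with control, and 8 genes in each had probes more than 1 log2 unit apart. Probes were fitted together here, with p-values adjusted over the 25285 kept probes and with the 75th percentile scaling only. Averaged over its probes, Ndufv3 would be higher than control (0.33 with X-1 and 0.48 with X-3), Ndufa3 too (0.21 and 0.60), and Ndufv2 at 0.07 and -0.08. Ndufv3, an accessory subunit at the NADH end, was read by 3. Probe A_52_P170054 fell by 1.34 with X-1 (adjusted p = 0.000484) and by 1.44 with X-3 (adjusted p = 0.000352). Probe A_51_P140211 measured 2.51, 2.53 and 2.57 on the X-1 arrays, 2.79, 2.97 and 2.84 on the X-3 arrays and 1.21, 1.41 and 1.54 on the control arrays, a rise of 1.15 and 1.48 (adjusted p = 7.02e-05 and 1.88e-05). Probe A_52_P175897 rose by 1.19 and 1.40 (adjusted p = 0.000937 and 0.000388). On the build of the array design, mm9, the first lies at chr17:31658570-31658629 and the others at chr17:31665148-31665207 and chr17:31664691-31664750 further along the gene, all on the plus strand. Ndufv3 transcripts are known to include or skip a long internal exon; which transcripts each probe reads was not tested. The first 30 of the 60 bases of each probe, as the array files give them 5′ to 3′, are shown because these probes move in opposite directions.
Ndufv3 A_52_P170054: gtctacagagtcagagaagagtgcaaagga
Ndufv3 A_51_P140211: gtgccagaaggaggctcccaggtccaggag
Ndufv3 A_52_P175897: agtttctgcaaaagagaaggccaaggtcca

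Sdha and Ndufab1, the mitochondrial acyl carrier protein that is also a subunit of complex I, had probes that did not go together. For Sdha, the probe used above, A_52_P109503 (mm9, chr13:74465756-74465815, minus strand), read -0.32 with X-1 and -0.28 with X-3. Probe A_51_P410823, further along the gene (chr13:74460146-74460205), measured -0.95, -0.72 and -0.80 on the X-1 arrays, -0.60, -0.42 and -0.72 on the X-3 arrays and 0.87, 1.14 and 0.98 on the control arrays and fell by 1.82 and 1.58 (adjusted p = 7.38e-06 and 2e-05). For Ndufab1, the brightest probe A_52_P1093473 (chr7:129235131-129235190, minus strand) was not called (-0.40 and -0.52), while A_51_P208801 (chr7:129231667-129231726) measured -1.03, -0.69 and -0.71 on the X-1 arrays, -0.98, -1.37 and -1.53 on the X-3 arrays and 0.47, 0.43 and 0.40 on the control arrays and fell by 1.24 and 1.73 (adjusted p = 0.000248 and 4.08e-05). The third probe of each gene was not called: for Sdha A_52_P458708 read 0.54 and 0.63, above control, and for Ndufab1 A_52_P303235 read 0.09 and -0.30. The first 30 bases of the other 4 probes follow.
Sdha A_52_P109503: tgaatcttgacaagttgagatttgccgatg
Sdha A_51_P410823: tgcagcacaagtattgttttgttcattctc
Ndufab1 A_52_P1093473: ttcctgatatagatgcagagaagttaatgt
Ndufab1 A_51_P208801: tgtaaatggctactttaaatcccagggtag

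Other dim probes differed from the brightest probe of their gene, in direction or only in size. For Ndufa3, an accessory membrane subunit, the brightest probe fell by 0.65 with X-1 and a second probe rose by 1.07 with X-1 and 1.50 with X-3. For Ndufb8, an accessory subunit of the membrane arm, the probes read -0.86 with X-1 and -0.95 with X-3, and 0.43 with X-1 and 0.36 with X-3. Probe A_52_P631514 of Atp5f1, the b subunit of the outer stalk, measured -1.24, -1.20 and -1.66 on the X-1 arrays, -0.78, -1.51 and -1.15 on the X-3 arrays and -3.73, -3.92 and -3.76 on the control arrays, a rise of 2.44 and 2.66 (adjusted p = 1.57e-05 and 1.18e-05), while the other probes of Atp5f1 were not called with either compound. A second probe of Uqcrq, a subunit of complex III, rose by 1.39 and 0.60 against 0.12 and -0.05 for the brightest.

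**Figure D4:**
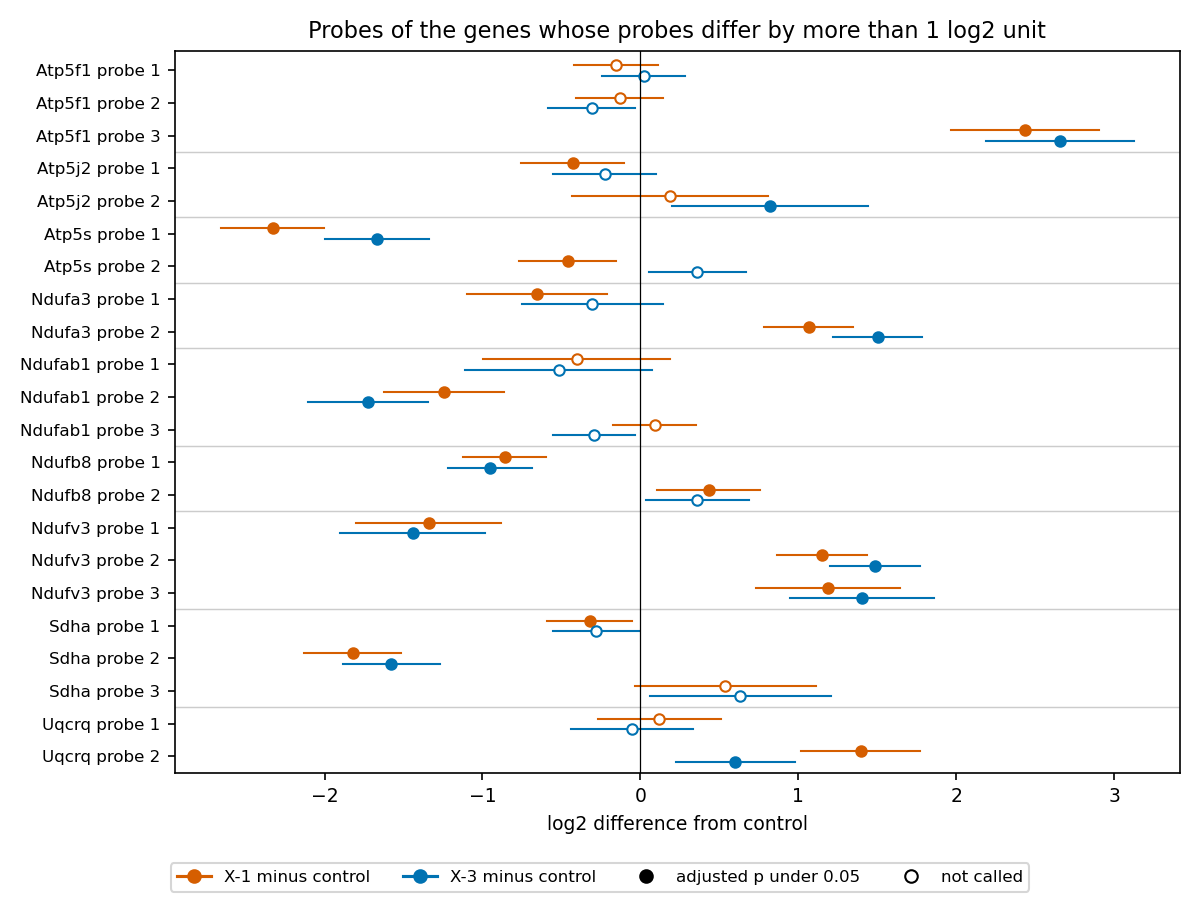
Log2 difference from control of each kept probe of the 9 genes whose probes lie more than 1 log2 unit apart in either comparison with control, X-1 above X-3, with 95% confidence intervals; filled points have an adjusted p under 0.05, and probe 1 is the brightest in the mean of all arrays. Ndufv3 has 1 probe at -1.34 and -1.44 and the other probes between 1.15 and 1.48, and the second Sdha probe lies at -1.82 and -1.58.

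The 2 compounds were given at the same dose and time, and the pair was compared directly. Of the 85 members, 3 were higher with X-3 than with X-1 and none was lower, where 6.97% of all genes tested were higher and 3.56% lower. The 3 were Atp5d, Atp5s and Atp5sl. Atp5d measured 4.17, 3.67 and 3.66 on the X-3 arrays and 3.08, 3.29 and 3.08 on the X-1 arrays. All X-3 arrays were above all X-1 arrays, and X-3 minus X-1 was 0.68 ± 0.16 (95% confidence interval 0.33 to 1.04, adjusted p = 0.029). Atp5s differed by 0.66 ± 0.14 (0.34 to 0.98, adjusted p = 0.0226) and Atp5sl, an assembly gene of the distal membrane arm of complex I, by 0.57 ± 0.12 (0.30 to 0.84, adjusted p = 0.0216). All 3 calls were lost with median scaling (adjusted p = 0.134 to 0.156) and when only the X-3 and X-1 arrays were fitted (adjusted p = 0.0821, 0.0679 and 0.0505). That of Atp5d was lost without any 1 of X-3 replicates 2 and 3, X-1 replicates 1, 2 and 3 or control replicates 2 and 3 (adjusted p = 0.0512 to 0.104), that of Atp5s without any 1 of X-3 replicate 3 or X-1 replicates 1, 2 and 3 (adjusted p = 0.0557 to 0.0661) and that of Atp5sl without any 1 of X-3 replicates 2 and 3 or X-1 replicates 2 and 3 (adjusted p = 0.0603 to 0.0805).

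For the remaining members no difference between the compounds was called. The members' median of X-3 minus X-1 was 0.04, the median gene's 95% interval reached 0.37 to either side, and the intervals of 80 of 85 members lay within 1 log2 unit of 0. By complex the medians were 0.04 for complex I, 0.00 for II, 0.06 for III, 0.02 for IV and 0.17 for V. The slides did not go the same way: the members' median was 0.42 on slide 1, -0.15 on slide 2 and -0.05 on slide 3. Without overlap of the arrays, X-3 lay above X-1 for 10 members, where 19% of all genes did so, and below it for 1, where 11.8% did so. Without the X-3 array of replicate 1, 5 members were higher and 5 lower with X-3. Leaving out each array in turn, 445 to 1698 of all 16735 genes were higher and 134 to 1709 lower. Without replicate 1 of every group, 7 members were higher and 22 lower, where 2889 and 3533 of all genes were. Among complex I genes, X-3 minus X-1 was largest for Ndufa6, at 0.60 (0.17 to 1.04, adjusted p = 0.0802), with no overlap of the groups, and the Ndufs8 difference was 0.44 (0.11 to 0.78, adjusted p = 0.0911). Sdhb, with its small spread, differed between the compounds by -0.04 (-0.28 to 0.20).

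Genes that work beside the nuclear subunits were taken from lists, whose counts stand beside 28.2% lower and 28% higher with X-1 and 26.4% lower and 28.9% higher with X-3 over all genes tested. With median scaling, of the list genes named below as called between the compounds, Bcs1l kept its call (adjusted p = 0.0427) and the other 9 did not (adjusted p = 0.0677 to 0.269). Of the 13 subunits encoded in mitochondrial DNA, 2 were matched to a probe. Cytochrome b, listed as CYTB, measured 7.63, 7.65 and 7.33 on the X-1 arrays, 7.88, 7.78 and 7.80 on the X-3 arrays and 7.35, 7.55 and 7.56 on the control arrays, and subunit 2 of complex IV, listed as COX2, measured 8.42, 8.90 and 8.88 on the X-1 arrays, 8.50, 8.78 and 8.54 on the X-3 arrays and 8.25, 8.56 and 8.72 on the control arrays. Neither was called: the differences were 0.05 and 0.33 for cytochrome b (adjusted p = 0.758 and 0.0515) and 0.22 and 0.10 for COX2. With quantile normalization cytochrome b was lower with X-1 (-0.45, adjusted p = 0.0158).

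Of 39 tested assembly factors outside the name rule, 19 (48.7%) were lower and 7 (17.9%) higher with X-1, and 16 (41.0%) lower and 4 (10.3%) higher with X-3. Cmc2 and Coa3, both factors of complex IV, differed by -1.42 with X-1 and -1.04 with X-3 and by -1.29 with X-1 and -0.84 with X-3, and Coa6, which acts in copper delivery to it, by -1.25 with X-1 and -1.36 with X-3. Cox17, the copper chaperone of complex IV, measured 4.89, 4.03 and 4.47 on the X-1 arrays, 4.99, 5.48 and 5.57 on the X-3 arrays and 3.27, 3.65 and 4.09 on the control arrays. It rose by 0.79 with X-1 (adjusted p = 0.0357) and by 1.68 with X-3 (adjusted p = 0.000829), with -0.52 and 0.97 under spike-in scaling. The X-1 call was lost with median scaling (adjusted p = 0.0685) and without any 1 of X-1 replicates 1 and 3 or control replicates 1 and 2 (adjusted p = 0.0808 to 0.123), where X-1 and control arrays overlap, and the X-3 arrays were all higher than control. Higd1a, a small inner membrane protein induced by low oxygen and found with complexes III and IV, rose by 4.30 and 3.91. Bcs1l, which inserts the Rieske protein into complex III, measured -0.32, -0.25 and -0.43 on the X-1 arrays, 0.75, 0.46 and 0.54 on the X-3 arrays and 0.79, 0.98 and 0.93 on the control arrays. Its X-1 arrays were far below the others: it fell by 1.23 with X-1 and differed by -0.31 with X-3 (adjusted p = 0.0581), and X-3 minus X-1 was 0.92 ± 0.12 (adjusted p = 0.00527). Surf1, a complex IV factor, also differed between the compounds (0.42, adjusted p = 0.0466, and 0.0582 to 0.157 without any 1 array other than X-3 replicate 1). Atpif1, the inhibitor of ATP synthase, was lower with both (-1.29 with X-1 and -1.17 with X-3).

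Coenzyme Q, the mobile carrier between the complexes, is made by the Coq enzymes. Of 10 tested genes, 7 were lower and 1 higher with X-1, and 2 (20%) were lower with X-3; 3 were higher with X-3 than with X-1. Coq9, a lipid-binding partner of the Coq7 hydroxylase, fell by 1.04 with X-1 and 0.34 with X-3, and X-3 minus X-1 was 0.70 ± 0.11 (adjusted p = 0.00858, and 0.0677 with median scaling). Its X-3 call was lost without any 1 of X-3 replicates 2 and 3 or control replicates 1, 2 and 3 (adjusted p = 0.0523 to 0.0983). Coq4 and Coq6 were lower with X-1 (-0.84 and -0.80), Coq7 with both (-0.48 with X-1 and -0.67 with X-3), and Coq10b, a coenzyme Q-binding protein, was higher with X-1 (1.11) and differed by 0.57 with X-3 (adjusted p = 0.118, and 0.0129 with the replicate block). Coq8b and Coq5 were the others higher with X-3 than with X-1 (0.64 and 0.42). The Coq8b call was lost without any 1 of X-3 replicates 2 and 3 or X-1 replicates 2 and 3 (adjusted p = 0.0624 to 0.0878), the Coq5 call without any 1 of X-3 replicates 2 and 3, X-1 replicates 1, 2 and 3 or control replicates 1, 2 and 3 (adjusted p = 0.054 to 0.148), and the Coq7 call with X-1 without any 1 of X-1 replicates 1, 2 and 3, X-3 replicate 3 or control replicates 1 and 3 (adjusted p = 0.052 to 0.139).

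Among 15 other electron inputs and carriers, 6 (40%) were lower and 2 higher with X-1, and 9 (60%) lower and 3 higher with X-3. Etfb, a subunit of the flavoprotein that brings electrons from fatty acid oxidation, differed by -1.64 with X-1 and -1.22 with X-3, and Dhodh, which feeds electrons to coenzyme Q while making pyrimidines, by -1.36 with X-1 and -1.46 with X-3. The outer membrane channels parted: Vdac1 rose (1.82 with X-1 and 1.55 with X-3) and Vdac2 fell (-0.99 with X-1 and -1.41 with X-3). Ucp2, an inner membrane carrier, rose by 1.44 with X-3 and differed by 0.36 with X-1, and X-3 minus X-1 was 1.08 ± 0.26 (adjusted p = 0.0348), a call lost without any 1 of X-3 replicates 2 and 3 or X-1 replicates 1, 2 and 3 (adjusted p = 0.0867 to 0.101). Aox1 also rose (2.18 with X-1 and 1.65 with X-3), but it is a cytosolic aldehyde oxidase and feeds no electrons to the chain.

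**Figure D5:**
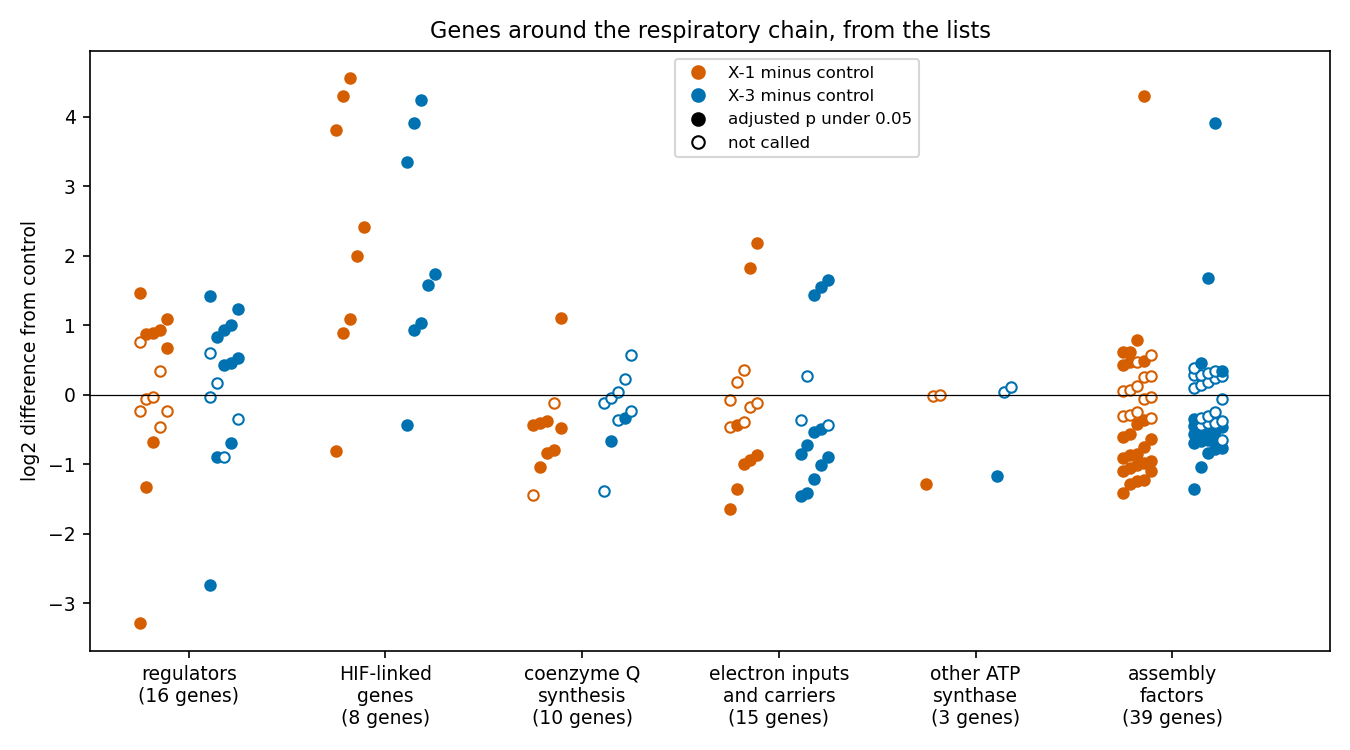
Log2 difference from control of the tested genes of 6 lists around the respiratory chain, X-1 left of X-3 in each list; every point is a gene, and filled points have an adjusted p under 0.05. The regulator with the lowest point is Ppargc1b at -3.29 and -2.74, and the highest points of the HIF-linked and assembly lists are Bnip3 and Higd1a at 3.91 to 4.56.

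Regulators of respiratory genes did not share a direction. Of 16, 6 (37.5%) were higher and 3 lower with X-1, and 8 (50%) higher and 3 lower with X-3. Ppargc1b (PGC-1 beta), a coactivator of mitochondrial genes, measured -2.11, -2.25 and -2.59 on the X-1 arrays, -2.15, -1.39 and -1.75 on the X-3 arrays and 0.89, 1.15 and 0.89 on the control arrays. It fell by 3.29 (adjusted p = 2.4e-06) and 2.74 (adjusted p = 8.49e-06). Its relative Ppargc1a differed by -0.47 with X-1 and -0.89 with X-3 and was not called (adjusted p = 0.36 and 0.0969), with the X-3 array of replicate 1 at -1.61 and the other X-3 arrays at 0.23 and 0.04. With median scaling the X-3 difference of Ppargc1a was -1.09 and was called (adjusted p = 0.019). Of the transcription factors known to bind respiratory promoters, Nrf1 was higher by 1.09 with X-1 and 0.84 with X-3 and Gabpa by 1.46 with X-1 and 1.23 with X-3, calls not kept with spike-in scaling (adjusted p = 0.0556 to 0.761). Gabpb1, the partner of Gabpa, was higher by 0.94 with X-1 and 1.43 with X-3, but the X-1 difference was -0.01 with spike-in scaling. Yy1 was higher by 0.88 with X-1 and 0.43 with X-3, but by spike-in scaling the differences were -0.02 and -0.30. Tfb1m, which methylates mitochondrial ribosomal RNA, was lower (-1.32 with X-1 and -0.90 with X-3), and Twnk, the helicase of mitochondrial DNA, was higher (0.67 with X-1 and 1.0 with X-3), with -0.41 and 0.26 under spike-in scaling. Polg2, an accessory subunit of the mitochondrial DNA polymerase, was higher with X-3 than with X-1 (0.69, adjusted p = 0.0129, and 0.095 with median scaling), and Yy1 was lower (-0.45, adjusted p = 0.0466), a call lost without any 1 of X-3 replicates 2 and 3, X-1 replicates 1, 2 and 3 or control replicates 1, 2 and 3 (adjusted p = 0.0516 to 0.164).

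Promoters of the members were read from RefSeq's mouse sequence (GRCm38.p6), as 250 bases before and 50 after the start of each gene; 72 of the members had 78 such windows, out of 32851 in the table. Both strands were searched for exact letters. The NRF1 motif GCATGCGC was in 14.1% of member windows and 2.71% of all windows, the ETS motif CCGGAAG that GABPA binds in 21.8% and 8.86%, the YY1 motif AAGATGG in 16.7% and 6.34%, and the HIF core ACGTG in 28.2% and 19.6%. A match describes letters, not binding. The 11 genes with the NRF1 letters included Sdhb and Uqcrc1, and 6 of the 11 were lower and none higher with X-1, 4 lower and 1 higher with X-3, where 49.4% and 45.9% of all members were lower. Of the 20 genes with the HIF letters, 10 were lower and 1, Cox7a1, was higher with X-1. With X-3, 8 of these 20 were lower and 2 higher. The Uqcrc1 window, a gene that fell (chr9:108936398-108936697, plus strand), is shown with the NRF1 letters of both strands in capitals, and the Cox7a1 window, a gene that rose (chr7:30183921-30184220, plus strand), with the HIF letters in capitals, where they stand on the minus strand.
Uqcrc1: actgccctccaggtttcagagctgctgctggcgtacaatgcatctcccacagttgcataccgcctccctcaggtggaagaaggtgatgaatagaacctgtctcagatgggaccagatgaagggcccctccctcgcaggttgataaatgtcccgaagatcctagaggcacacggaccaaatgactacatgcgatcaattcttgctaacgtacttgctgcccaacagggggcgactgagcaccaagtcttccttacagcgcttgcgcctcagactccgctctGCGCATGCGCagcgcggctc
Cox7a1: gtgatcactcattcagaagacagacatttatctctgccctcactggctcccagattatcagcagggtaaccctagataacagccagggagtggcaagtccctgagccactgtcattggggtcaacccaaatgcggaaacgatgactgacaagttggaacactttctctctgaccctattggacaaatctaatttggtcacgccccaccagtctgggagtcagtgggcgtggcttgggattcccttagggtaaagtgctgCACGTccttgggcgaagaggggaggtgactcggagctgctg

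The last list holds genes linked to low oxygen or its factor HIF and to a shift of mitochondrial work, and it was not limited to genes known to be induced. Of 8 tested, 7 were higher and 1 lower with each compound. Bnip3 and Bnip3l, receptors for the removal of mitochondria, rose by 4.56 and 2.41 with X-1 and by 4.24 and 1.73 with X-3. Pdk1, the kinase that shuts pyruvate out of the citric acid cycle, measured 3.75, 3.98 and 3.90 on the X-1 arrays, 3.76, 3.30 and 3.31 on the X-3 arrays and 1.95, 1.89 and 1.78 on the control arrays and rose by 2.00 and 1.58. Mxi1, a MYC antagonist, rose by 3.81 and 3.35, and Lonp1, a mitochondrial protease, by 0.89 and 0.93, with -0.05 and 0.16 under spike-in scaling. Iscu, the scaffold on which iron-sulphur clusters are built, fell by 0.80 and 0.44, the X-3 call being lost without any 1 of X-3 replicates 1, 2 and 3, X-1 replicate 3 or control replicates 2 and 3 (adjusted p = 0.0564 to 0.13). Between the compounds, Bnip3l and Mxi1 were lower with X-3 than with X-1 (-0.67 and -0.46, adjusted p = 0.0195 and 0.0379), calls lost without any 1 of X-3 replicates 2 and 3 or X-1 replicates 2 and 3 (adjusted p = 0.058 to 0.0814), and without any 1 of X-3 replicates 2 and 3, X-1 replicates 2 and 3 or control replicates 2 and 3 (adjusted p = 0.0637 to 0.139). Cox4i2, the subunit 4 isoform known to take the place of Cox4i1 in low oxygen, was above background on 2 of 3 X-1 arrays, 2 of 3 X-3 arrays and 0 of 3 control arrays. It read -5.18, -5.69 and -5.97 with X-1, -5.96, -5.26 and -5.50 with X-3 and -6.60, -6.46 and -6.56 in control.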

How the data were processed

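RNA of 9 samples was measured on 1-colour Agilent 60-base mouse arrays, 3 each for X-1, X-3 and control. The deposited scanner files hold each spot's processed signal, an intensity that Agilent's Feature Extraction software had corrected for background, per the file headers (versions 10.5.1.1 and 10.7.3.1, while the submitters' processing notes name 9.1). A deposited table of the authors holds a score per probe whose scale and centring are not given in the sources used here, and it served as an alternative only.

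Spots marked as outliers were dropped, spots of a probe averaged, and each array's log2 signal centred on its 75th percentile. Probes well above background on all 3 arrays of a group were kept (25285), each gene was read by its brightest probe in the mean of all arrays, and 16735 genes were fitted together in limma 3.58.1 (R 4.3.3, tested on simulated data; tables with Python 3.11.15 and pandas 2.3.3). Adjusted p-values are Benjamini-Hochberg over all of them, with a threshold of 0.05; ± is the standard error. The number of arrays limits the precision. Alternatives were median, quantile and spike-in scaling (7 probes, replicates 2 and 3), normexp on the median signal (the mean signal was not used here), no filter, the mean of probes, the deposited scores, a replicate block, 2-group fits and leaving out arrays.

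Named genes are those with the 10 highest and lowest called differences, isoform sets, core subunits, genes with opposed probes, and up to 4 genes a list; other named members were picked after their values were seen. The members and lists were chosen with earlier results of these data known. Replicate numbers paired the samples: deviations from group means correlated at 0.518, 0.318 and 0.271 for X-1 with control and 0.238, 0.113 and 0.230 for X-3 with control, but at -0.040, -0.182 and 0.156 for X-3 with X-1. One item is not reported here on its own.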

Additional observations from a re-analysis of the deposited data

Results flagged for a closer look

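The Cox4i2 probe, which no comparison above tested, was well above background on 2 of 3 X-1 arrays and on 2 of 3 X-3 arrays, against 0 of 3 control arrays. A second probe of Ndufs5 was well above background on 1 of 3 X-1 arrays, at -4.58, and on 0 of the X-3 and control arrays. Both signals lie near the background of the arrays.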

How the results depend on the processing

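The differences are relative to each array's 75th percentile, and spike-in scaling moved the counts against control most, while between the compounds the setting without replicate 1 of every group called the most genes; the cause was not tested. Spike-in scaling also leaves out replicate 1, so it changes 2 choices. With it, X-1 gave 4 lower genes in complex II, 6 in III, 10 in IV and 15 in V, with 77 members lower, 0 higher and a members' median of -1.29. With X-3 it gave 3, 6, 10 and 14, with 74 lower, 0 higher and -1.23, and the median of complex V between the compounds, less that of all genes, was -0.0602 there and -0.0602 without replicate 1 of every group. By spike-in scaling, named differences that turned negative and were called before or after the change were, with X-1, Atp5l -0.75, Cox17 -0.52, COX2 -0.65, Cox4i1 -0.68, Cox4nb -0.41, Cox7a2l -0.24, Cox7b -0.79, Cycs -0.79, CYTB -0.97, Cd68 -0.0056, Gabpb1 -0.015, Lonp1 -0.0528, Lpl -0.22, Ndufaf4 -0.42, Ndufb3 -0.73, Sdhd -0.74, Twnk -0.41, Ucp2 -0.84, Uqcrq -0.65 and Yy1 -0.0184. With X-3 they were Atp5d -0.69, Atp5f1 -0.77, Atp5l -0.20, Atp5sl -0.79, COX2 -0.67, Cox6b2 -0.69, Cox7a2l -0.0551, Cox7b -0.74, Cox8a -0.74, Myh1 -0.26, Polg2 -0.36, Sdhd -0.81, Uqcrh -0.30 and Yy1 -0.30. Differences called in neither setting, for 5 other genes with X-1, Uqcrh (-0.50) among them, and 10 with X-3, also turned negative. Calls of Coq10b with X-1, of Lonp1, Lpl, Twnk and Ucp2 with X-3 and of Cox7a1, Csf1r, Gabpa and Nrf1 with both were lost there with no change of sign. Median scaling gave members' medians of -0.61 with X-1 and -0.63 with X-3 and 1 higher member with each. Over all genes it called 3126 higher and 5114 lower with X-1 and 3081 higher and 4875 lower with X-3, where spike-in scaling called 1534 higher and 9973 lower, and 1854 higher and 8306 lower, against 4688 higher and 4726 lower, and 4836 higher and 4417 lower here; the medians of all genes with median scaling were -0.14 and -0.15. Quantile normalization and the deposited scores each called 6 complex IV genes lower with X-1, and 7 in complex IV and 8 in complex V with X-3, and CYTB turned to -0.45 and -0.11 with X-1 and Cox8a to -0.32 and -0.08 with X-3. The shares of all genes called lower in these settings are not given here, so these counts stand without them. The deposited scores gave no medians. Complex II kept 1 lower gene with X-1 under normexp, 1 without the filter and 1 with the replicate block. Without the filter, complex V had 5 lower genes with X-1 and 2 with X-3, complex III had 1 with X-3, and the medians less that of all genes with X-1 were -1.0 (I), -0.75 (II), -0.50 (III), -0.31 (IV) and -0.77 (V), and 0.0661 for complex II between the compounds. The mean of all probes called 6 members higher with X-1, 7 with X-3 and 2 lower in complex II with X-3, put the complex II median with X-1 at -0.62, and turned Atp5f1 to 0.72, Ndufa3 to 0.21, Ndufaf4 to -0.47, Ndufv2 to 0.0716 and Ndufv3 to 0.33 with X-1, and Ndufa3 to 0.60, Ndufaf4 to -0.42 and Ndufv3 to 0.48 with X-3; the turned values follow from averaging probes that disagree. Without replicate 1 of every group, 6 members were higher with X-1, and with X-3 60 were lower, 2 of them in complex II and 11 in complex V. The share of all genes called in that setting is not given here for the comparisons with control. Between the compounds that setting called 7 members higher and 22 lower with X-3 (11 in complex I, 3 in III, 4 in IV and 2 in V), the mean of all probes 1 lower, in complex III, and members higher numbered 0 with median scaling, 0 without the filter, 0 with only the 2 groups fitted, 7 with quantile normalization and 6 with the deposited scores. Over all genes these calls were 317 higher and 143 lower with median scaling, 393 and 150 without the filter, 506 and 201 with only the 2 groups, 2889 and 3533 without replicate 1 of every group, and 1166 and 596 here; the higher calls were 636 with normexp and the lower calls 256 with spike-in scaling. Leaving out each array in turn, with X-1 34 to 50 members were lower, 3 to 4 higher, 21 to 30 lower in complex I, 1 to 3 in II and 5 to 9 in V. Over all genes 4139 to 5371 were lower and 3955 to 5550 higher with X-1. With X-3 25 to 59 members were lower, 3 to 4 higher, 16 to 34 lower in complex I, 1 to 2 in II, 1 to 4 in III, 3 to 5 in IV and 2 to 11 in V, and the medians less that of all genes were -0.74 to -0.52 in complex I and -0.19 to 0.0606 in IV. Over all genes 3765 to 5158 were lower and 4172 to 5332 higher with X-3. Between the compounds 0 to 5 members were higher and 0 to 5 lower, with 0 to 1 lower in complex I, 0 to 1 in III, 0 to 2 in IV and 0 to 1 in V and a complex V median of -0.0206 to 0.19. Over all genes 445 to 1698 were higher and 134 to 1709 lower between the compounds. With the replicate block 42 members were lower with X-1 and 40 with X-3, and beside the named changes to Sdha, Uqcr, Cox6b1, Cox6c and Coq10b and the loss of Cd68 with X-1 (adjusted p = 0.0535) it changed no other named call against control. Between the compounds, where numbers did not pair the samples, the block took the calls of Coq5 (adjusted p = 0.0681), Surf1 (0.069) and Mxi1 (0.0534) and added Acta1, Coq6, Gabpb1 and Ndufa6 (0.0297 to 0.0469). Signal near background limits Cox8b and Cox4i2.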
